A study of Mus musculus with 32 samples.

Results

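The genes of major histocompatibility complex (MHC) class II antigen presentation were examined in open-chromatin maps of mouse dendritic cells. The 10 genes were Ciita, H2-Aa, H2-Ab1, H2-Eb1, H2-DMa, H2-DMb1, H2-DMb2, H2-Oa, H2-Ob and Cd74. Regions were taken as theirs when they lay over one of the gene bodies or, if intergenic, when one of these genes was the nearest within 50 kb. Of 90465 accessible regions, 74 belonged to them, 41 over gene bodies and 33 intergenic, and 29 of the 74 were called in all 32 libraries. Membership used position only and no measured value.

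Omni-ATAC-seq, which reads open chromatin through insertion of sequencing adapters by a transposase, was applied to dendritic cells sorted from skin-draining lymph nodes. The series text asks whether signalling through the interferon-gamma receptor chain IFNgR1 affects dendritic cell maturation at the level of chromatin. The subsets were resident cDC1 and cDC2, and migratory migDC1, migDC2 and DN migDC. Most mice carried floxed Ifngr1: CD11cCREneg/IFNgr1flfl (below, Cre-negative) and CD11cCREpos/IFNgr1flfl (Cre-positive).

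The cDC1, cDC2, migDC2 and DN migDC subsets had 3 libraries of each of these genotypes, and migDC1 had 2 of each. A further 2 WT and 2 IFNgr1-/- libraries, the last with a germline deletion, came from migDC2 alone. The floxed cohort therefore held 12 resident and 16 migratory libraries. Both floxed genotypes carried the floxed alleles, the recombinase was driven by the CD11c promoter, and no group had the recombinase without the floxed alleles. Deletion of Ifngr1 cannot be checked in lists of peaks. Ages are not given in the labels, and no label says that replicates came from separate animals, so p-values measure the spread between these libraries, which may be technical.

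MHC class II molecules carry peptides from endocytosed proteins to the cell surface, where CD4+ T cells read them. The classical molecules are H2-A, made of H2-Aa and H2-Ab1, and H2-E, whose beta chain is H2-Eb1; Cd74, the invariant chain, escorts them and fills their groove, H2-DM removes its remnant and loads peptide, and H2-O restrains H2-DM. Ciita is the coactivator that switches these genes on, and it is recruited by factors bound at the X and Y boxes of their promoters: the RFX complex and CREB at the X box, NF-Y at the Y box. Maturing dendritic cells are known to move class II molecules to their surface while they cease making new ones.

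Promoter windows of 300 bases from RefSeq (build GRCm38, whose coordinates are those of mm10) matched 7 of the 10 genes, in 8 windows; Ciita, H2-Ab1 and Cd74 were not among them. In 6 genes the window held TGATTGG, which contains the inverted CCAAT core that NF-Y recognises. These stretches of 60 bases are shown because the accessible regions described below lie over them; capitals mark TGATTGG, the X-box-like AACNNATG and, in H2-Aa, TGACGTCA, the palindrome bound by CREB.
H2-Oa, chr17:34092289-34092348, plus strand: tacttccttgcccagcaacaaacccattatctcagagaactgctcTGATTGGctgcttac
H2-DMb2, chr17:34145112-34145171, plus strand: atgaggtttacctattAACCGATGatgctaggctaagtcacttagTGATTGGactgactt
H2-DMb1, chr17:34153083-34153142, plus strand: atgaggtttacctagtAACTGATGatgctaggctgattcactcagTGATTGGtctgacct
H2-Ob, chr17:34238801-34238860, plus strand: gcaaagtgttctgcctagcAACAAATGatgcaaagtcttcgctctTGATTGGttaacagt
H2-Aa, chr17:34287859-34287918, minus strand: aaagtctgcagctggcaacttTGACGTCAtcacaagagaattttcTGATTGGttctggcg
H2-Eb1, chr17:34305761-34305820, plus strand: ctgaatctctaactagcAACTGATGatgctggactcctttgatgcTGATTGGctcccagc

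AACNNATG stood before TGATTGG on the same strand in 4 of these genes, with 21 bases between them in H2-DMb2 and H2-DMb1, 18 in H2-Ob and 20 in H2-Eb1. Among all 32817 windows, TGATTGG was found on either strand in 7.80%, AACNNATG in 8.86%, and the pair in this order within 40 bases in 14 windows, or 0.0427%. These 3 patterns were chosen after the sequences had been seen. Of the motifs chosen from textbook knowledge, CCAAT was in 7 of the 8 member windows and in 37.4% of all windows (it lies within TGATTGG on the other strand). ACAGATG was in 2 (5.02% of all), and TGACGTCA in 1 (1.79%), as was TGACG, its first 5 letters (20.8%). GAGGAA was in 1 window (28.3%) and TTCNNNGAA, a STAT-like pattern, in 1 (8.29%). GAGGAAGT (3.20%), which contains GAGGAA, GGAANNGAA (8.25%) and GAAANNGAA (8.55%) were in none of the 8.

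Peaks covered the TGATTGG of H2-Oa, H2-DMb2, H2-DMb1, H2-Aa and H2-Eb1 in all 32 libraries. Over that of H2-Ob a peak lay in all 12 resident libraries and in 17 of 20 migratory ones, counting the germline pair. The peak's summit, its most accessible base, lay within 100 bp of TGATTGG in all 32 libraries for H2-DMb1 and for H2-Aa. For H2-Ob the summit of the covering peak stood 941 to 1008 bp away in the resident libraries, and 14 and 22 bp away in the 2 migDC1 libraries that had one. It was within 100 bp in 5 of 9 such migDC2 and 4 of 6 DN migDC libraries, and up to 1008 and 1015 bp away in the others. For H2-Oa it was 388 to 511 bp away in all libraries. For H2-DMb2 it was within 100 bp in 0 of 6 cDC1, 5 of 6 cDC2, 4 of 4 migDC1, 7 of 10 migDC2 and 5 of 6 DN migDC libraries. For H2-Eb1 it was within 100 bp in 11 of 12 resident libraries, in 3 of 4 migDC1, 3 of 10 migDC2 and 2 of 6 DN migDC libraries. No test was made of these summit positions.

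Lists held 38455 to 69544 peaks in resident and 44991 to 74975 in migratory libraries of the floxed cohort, and 32649 to 42446 in the germline pair; read depth is unknown. The labels were checked against marker genes, by the number of their regions called per library. Of 66 regions of migratory dendritic cell markers, resident libraries held 21 to 32 and migratory ones 36 to 61. Of 121 regions of cDC1 markers, cDC1 held 73 to 101 against 36 to 61 in cDC2, and migDC1 held 64 to 85 against 53 to 71 in migDC2, ranges that overlap. Of 65 regions of cDC2 markers, cDC2 held 26 to 45 and cDC1 28 to 42, so this list did not separate the resident subsets. In migDC2 36 to 46 of them were called, against 20 to 31 in migDC1. The second Cre-negative cDC1 library and the first Cre-positive DN migDC library stood apart by short peaks, with median widths of 389 and 401 bp. Titles come in plain numbers (all 12 resident libraries, 2 migDC2 and 2 DN migDC) and in lettered form (the other 12 migratory ones), so title style and migration are largely confounded.

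Signal was never compared between lists directly, because the deposited peak signal carries no scaling between libraries. Regions called in every library, 21040 in all, were ranked by peak signal within each library, rank 1 being the strongest, and log2 ranks were tested with limma, with Benjamini-Hochberg adjustment over all 21040 regions. A positive difference thus means a weaker region. On this scale a region near the top of the ranks has more room to fall than one lower down. Where groups are said not to overlap in rank or width, the share of all common regions without overlap is not given. The width of the strongest peak over each region was tested in the same way after centring each library on its median, and for regions missing from some libraries the number of libraries with a peak was compared by an exact conditional test. A weaker or narrower peak in a bulk sample may mean fewer cells with open chromatin or less opening per cell, and these cannot be told apart.

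The class II genes held a smaller part of the accessible signal in migratory than in resident cells. Their peaks took 0.424% (lowest), 0.493% (median) and 0.565% (highest) of the list's summed signal in the 12 resident libraries, and 0.190%, 0.245% and 0.298% in the 16 migratory ones. The groups did not overlap. Within them the order was cDC2 with a median of 0.515%, cDC1 0.462%, DN migDC 0.280%, migDC2 0.243% and migDC1 0.199%, in which cDC1 and cDC2 overlapped (0.424 to 0.518% against 0.491 to 0.565%), as did migDC2 and DN migDC. The peaks covered a median of 151 kb in resident and 106 kb in migratory libraries, with a median signal per base of 2.55 and 2.03, where the whole lists had 1.85 and 1.98. Peaks over the body of Cd74 took a median of 0.184% in resident and 0.0658% in migratory libraries, and those over H2-Ab1 0.0676% and 0.0103%. Shares over Ciita (0.0126% and 0.0173%) and H2-Oa (0.00367% and 0.00469%) were larger in migratory libraries. The broadest Cd74 region also covers Tcof1, and one of H2-DMa covers Brd2.

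Of the 29 common regions, 23 were weaker and 3 stronger in migratory cells, with a median difference of 0.96 on the log2 rank scale; over all 21040 regions the median was 0.05, and 38.7% were weaker and 29.9% stronger. In width 18 were narrower and 2 wider, with a median of -0.48 on the log2 scale, where all regions had a median of 0.01, 17.3% narrower and 20.9% wider. With signal divided by peak width the count was 13 weaker and 5 stronger, and with title style as a further term it was 19 weaker and 3 stronger. Of the 29, 11 were at least 3 kb wide, and of these 10 were narrower and 11 weaker. Of the 1108 other common regions of that width 33.5% were narrower and 42.0% weaker. A region's width is the span that 3 or more lists covered, so a region can reach 3 kb through resident peaks alone. Regions chosen in that way are more likely to be narrower and weaker in migratory libraries, so these counts are no separate evidence. Without the second Cre-negative cDC1 library the counts were 22 weaker, 3 stronger, 19 narrower and 2 wider, and without the first Cre-positive DN migDC library 22, 3, 18 and 2.

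**Figure D1:**
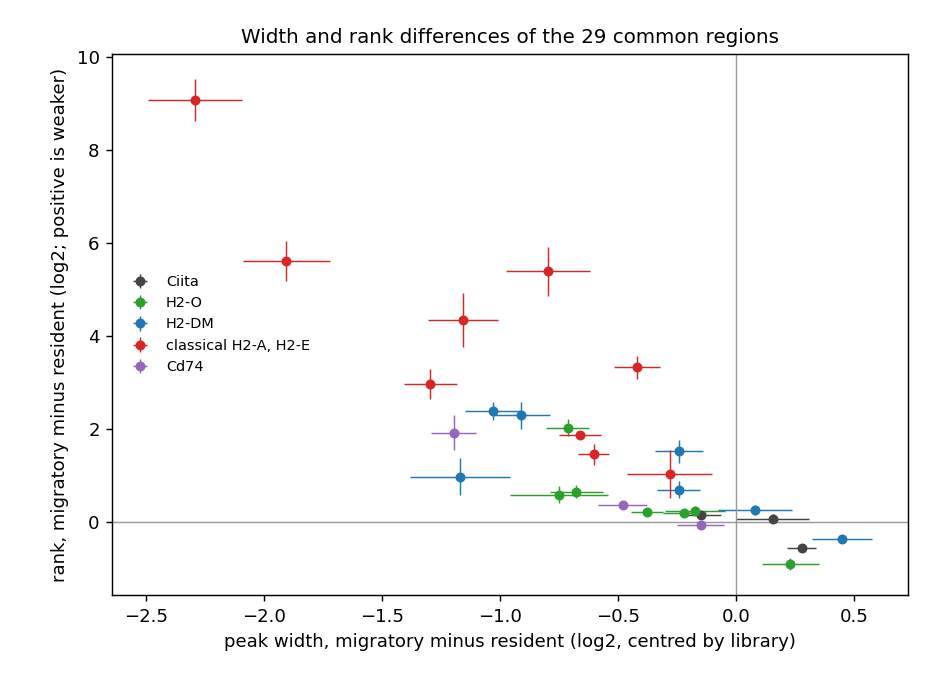
Difference in log2 rank (vertical; positive is weaker) against difference in log2 peak width (horizontal; negative is narrower), migratory minus resident, for the 29 member regions called in all 32 libraries; points are limma estimates, bars 1 standard error, colours the role of the gene. The classical H2-A and H2-E regions reach highest and farthest left, up to 9.08 in rank and -2.29 in width, and 3 regions, of Ciita, H2-DMa and H2-Oa, lie at lower right; the width of the H2-Oa region (0.23) did not pass.

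Ciita, the coactivator, was called more often in migratory cells at 4 regions and less often at 1, and of its 3 common regions 1 was stronger there and 1 weaker. The gene (chromosome 16, 10480014 to 10531064) had 21 regions, of which 3 were in all libraries and 12 could be tested for presence. Over all 61445 regions tested, 25.0% were called more often and 15.1% less often. For the 10 genes together the count was 5 more and 4 less of 34 tested, below the first share and close to the second. With every list cut to its 38455 strongest peaks, the count was 5 more and 13 less often of 25 tested, where 27.4% and 32.5% of all 36025 regions tested at that length were.

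A region inside Ciita (10483371 to 10484186), about 3 kb from the gene's lower-coordinate end, had a peak in all 16 migratory libraries of the floxed cohort and 0 of the 12 resident ones, and in all 4 germline libraries (adjusted p = 2.07e-06, exact conditional test with Benjamini-Hochberg adjustment). An intergenic region below the gene (10466391 to 10466970) was also called in 16 of 16 and 0 of 12. Nearby, the region at 10464980 to 10465966 was called in 16 migratory and 4 resident libraries, all 4 of them cDC1 (adjusted p = 0.00105, exact), and that at 10470617 to 10471042 in 14 and 2 (adjusted p = 0.00241, exact). In the 4 germline libraries the peak at 10466391 was present in 4, that at 10464980 in 3 and that at 10470617 in 0. The 1 region called less often, 10468310 to 10468706, was in 6 of 6 cDC1, 1 of 6 cDC2 and 1 of 16 migratory libraries (adjusted p = 0.0149, exact). Within plain-titled libraries alone the differences at 10464980 and 10468310 no longer passed (adjusted p = 0.255 and 0.276, exact).

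Ciita is transcribed from alternative promoters, with forms typical of dendritic cells, of B cells and of cells exposed to interferon gamma; the gene table used here gives only the outer ends, so regions were not assigned to a promoter. The common region of Ciita with the best median rank over the 32 libraries (10495701 to 10496538) had rank numbers of 15766, 18241 and 20259 in resident libraries and 9689, 12668 and 14875 in migratory ones (lowest, median, highest). The groups did not overlap, and the region was stronger by a log2 rank difference of -0.56 ± 0.05 (SE, adjusted p = 3.82e-10, limma). It was also wider by 0.28 ± 0.06 on the log2 scale. Because 20 of the 32 libraries are migratory, that choice favours a region strong in them: in resident libraries the region at 10500383 stood ahead of it, with geometric mean ranks of 12747 and 18268. Of the other common regions of Ciita, that at 10500383 to 10501178 was weaker by 0.14 ± 0.05 (-0.06 by signal per base, the other direction) and that at 10487583 to 10490162 did not pass (0.06 ± 0.10).

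**Figure D2:**
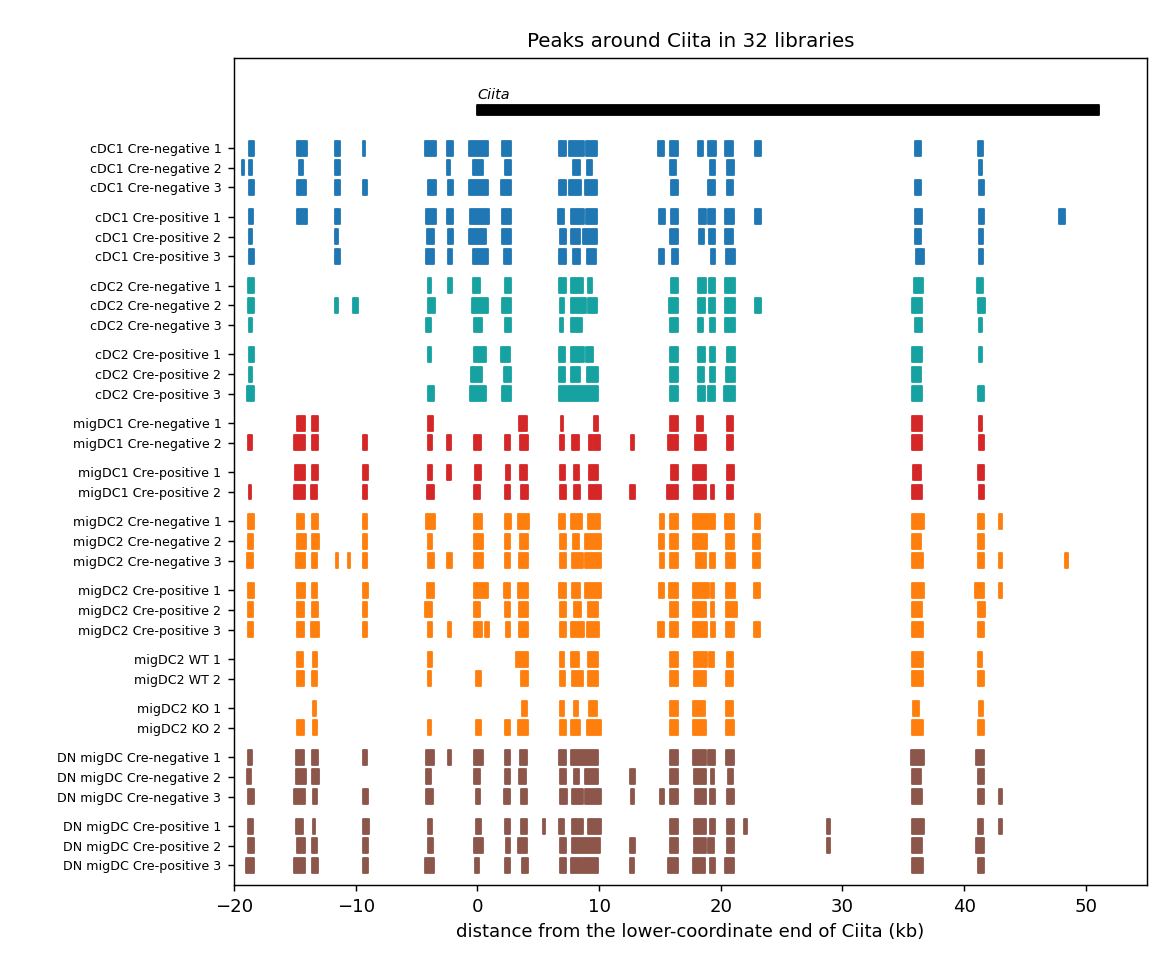
Peaks of each of the 32 libraries (rows, coloured by subset) around Ciita, with distance in kb from the gene's lower-coordinate end; bars are the deposited peaks, drawn to scale, and the black bar is the gene. Peaks 3357 to 4172 bp into the gene, and others that end 13044 bp short of it, are present in every migratory row and missing from every resident row.

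The classical genes H2-Ab1, H2-Aa and H2-Eb1 were weaker and narrower in migratory cells almost throughout. Their 9 common regions held 8 weaker and 0 stronger, with a median difference of 3.32, and 8 narrower and 0 wider. Over all 21040 regions, 38.7% were weaker, 29.9% stronger, 17.3% narrower and 20.9% wider. Taken by loss of rank among all 21040, 4 of these 9 stood at positions 3, 7, 8 and 12. These 4 had geometric mean ranks of 11, 97, 28 and 42 in resident libraries, where the log2 scale leaves the most room to fall. Their positions thus depend in part on where they started.

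The extreme region ran from inside H2-Ab1 (chromosome 17, 34263227 to 34269418), the beta chain of H2-A, across the space between the genes into H2-Aa (34282744 to 34287823), the alpha chain, at 34267005 to 34284910. In resident libraries its rank was 5 at the strongest, 9 in the median and 183 at the weakest, and in migratory ones 453, 8492 and 15884. The 4 migDC1 libraries had ranks of 15157, 15443, 15884 and 14412, weaker than any migDC2 or DN migDC library of the floxed cohort, where the medians were 9322 and 1456. The difference between migratory and resident libraries was 9.08 ± 0.46 (SE, adjusted p = 1.07e-13, limma).

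Peaks over that region were also much shorter. In cDC2 a single peak of 17512 to 17860 bp covered nearly the whole region in all 6 libraries, and in cDC1 the strongest peak was 2927 bp at the lowest, 9506 bp in the median and 15235 bp at the highest. In migDC1 it was 1063, 1419, 1182 and 1828 bp. Peaks covered 66.8% to 99.7% of the region in resident and 5.9% to 75.3% in migratory libraries. The difference in width was -2.29 ± 0.20 (SE, adjusted p = 2.81e-09, limma). The 4 migratory libraries with plain titles had ranks of 1844, 7610, 1279 and 8479, outside the range of the 12 resident libraries with such titles.

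The region over the start of H2-Ab1 (34260435 to 34265971) had ranks of 19, 28 and 62 in resident and 129, 908 and 9096 in migratory libraries, with no overlap (difference 5.39 ± 0.52, adjusted p = 5.87e-09, limma). Its width difference of -0.80 ± 0.18 lost its call with title style as a term (-0.71, adjusted p = 0.105, limma). Between it and the broad region, a region of 797 bp (34266077 to 34266873) had a peak in 11 of the 12 resident libraries and 0 of the 16 migratory ones (adjusted p = 1.3e-05, exact), the only presence difference among the classical genes that passed, of 2 tested.

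H2-Aa showed the same direction at its promoter, the region holding the TGACGTCA and TGATTGG printed above (34285040 to 34288573). Its ranks were 97, 175 and 849 in resident and 937, 1952 and 3716 in migratory libraries, with no overlap (difference 3.32 ± 0.25, adjusted p = 9.68e-11, limma). An intergenic region of 9290 bp beyond the gene (34290573 to 34299862), the strongest region of H2-Aa by its median over libraries, was weaker by 2.96 ± 0.32 and narrower by -1.30 ± 0.11, and its peak widths did not overlap between the groups. Ranked by signal per base, this region was stronger in migratory cells (-2.37, adjusted p = 0.00054, limma).

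H2-Eb1 (34305867 to 34316674), the beta chain of H2-E, had 4 regions, all of them in all libraries. That over its promoter (34303516 to 34308945) had ranks of 22, 32 and 645 in resident and 194, 454 and 4126 in migratory libraries; the ranges overlapped only through the resident library at 645, the second Cre-negative cDC1 library (difference 4.34 ± 0.58, adjusted p = 8.23e-07, limma). The region that runs from the gene's body past its upper-coordinate end (34311082 to 34324392) had ranks of 20, 61 and 1558 against 2655, 4152 and 14797, with no overlap in rank or in width (5.62 ± 0.43 in rank, adjusted p = 1.23e-10; -1.90 ± 0.19 in width, limma). An upstream region (34300209 to 34302885) was weaker by 1.87 ± 0.09, and a short one in the body (34309133 to 34310966) did not pass (1.02 ± 0.51, adjusted p = 0.0801, limma).

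**Figure D3:**
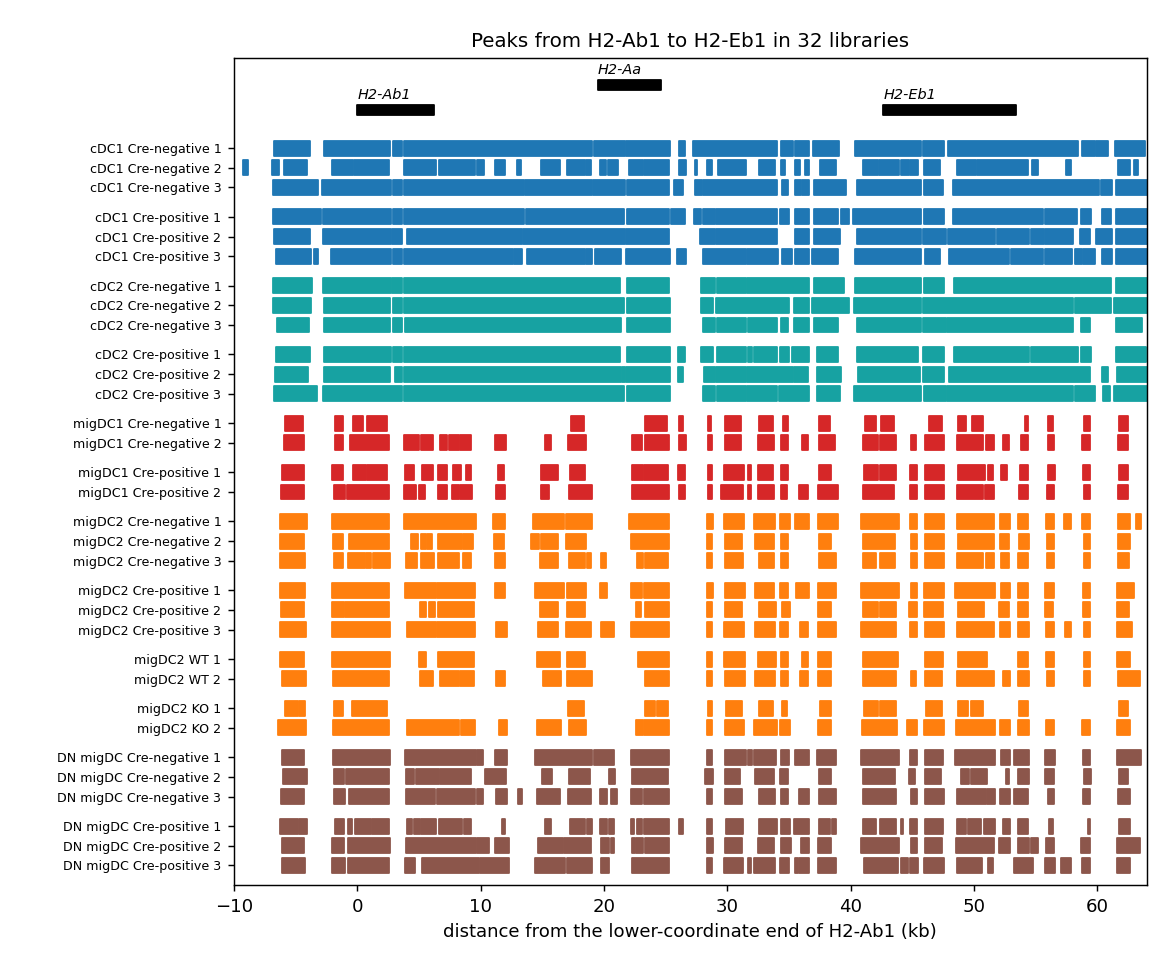
Peaks of each of the 32 libraries (rows, coloured by subset) from H2-Ab1 to H2-Eb1, with distance in kb from the lower-coordinate end of H2-Ab1; bars are the deposited peaks, drawn to scale, and black bars are the genes. Between H2-Ab1 and H2-Aa the strongest peak is 8808 to 17860 bp wide in 11 resident rows and 2927 bp in the second Cre-negative cDC1 row, and it is 1063 to 5776 bp wide in the migratory rows.

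H2-DM, the peptide loader, was weaker at 6 of 7 common regions and stronger at 1, with a median difference of 0.96. In width 4 were narrower and 1 wider. Over all common regions 38.7% were weaker, 29.9% stronger, 17.3% narrower and 20.9% wider. The promoter region of H2-DMb1 (gene at 34153191 to 34160229, region at 34152174 to 34154186) had ranks of 274, 2382 and 4081 in resident and 6928, 10142 and 14533 in migratory libraries, with no overlap in rank or width (2.38 ± 0.19 in rank, adjusted p = 1.87e-10; -1.03 ± 0.12 in width, limma). Of H2-DMb2, another beta chain gene (34143229 to 34151553), the region holding its promoter motifs (34144129 to 34146121) was weaker by 2.29 ± 0.29, and its strongest region (34140238 to 34144027) was weaker by 1.51 ± 0.25, again with no overlap of ranks.

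For H2-DMa, the alpha chain (34119693 to 34139101), the strongest region (34112089 to 34125340) also covers Brd2, a broadly expressed chromatin reader gene, so it cannot be credited to either gene. Its ranks were 6, 13 and 20 in resident and 6, 20 and 33 in migratory libraries, ranges that overlap. The difference of 0.69 ± 0.18 (adjusted p = 0.00223, limma) fell to 0.01 with title style as a term (adjusted p = 0.98, limma). Inside H2-DMa a weak region (34128681 to 34129775) was stronger in migratory libraries by -0.37 ± 0.04 and wider by 0.45 ± 0.13. A call at 34135154 to 34137208 (0.25 ± 0.11, adjusted p = 0.0424, limma) was lost in 13 of 28 fits that left out 1 library, and one at H2-DMb1 34154303 to 34157652 (0.96 ± 0.40, adjusted p = 0.0371, limma) in 10; by signal per base the latter turned to -0.05. By presence, 2 of 8 regions tested, both at H2-DMb1, were called less often, where 15.1% of all regions tested were. These were 34158269 to 34159448, in 12 of 12 resident but 7 of 16 migratory lists, and 34163878 to 34164817, in 10 but 3. The migratory subsets differed. The first was in 5 of 6 migDC2, 2 of 6 DN migDC and 0 of 4 migDC1 libraries, and the second in 0, 3 and 0. The second missed the threshold within plain-titled libraries (adjusted p = 0.433, exact).

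H2-O, the brake on H2-DM, was weaker at 6 of 7 common regions and stronger at 1, with a median difference of 0.24. Over all common regions 38.7% were weaker and 29.9% stronger. H2-Ob (34238905 to 34245908) was weaker at all 4 of its common regions, though at 34234677 and 34249215 the direction reversed by signal per base. Its promoter region (34238295 to 34240640) had ranks of 791, 1154 and 2653 in resident and 2654, 4574 and 8911 in migratory libraries, which just failed to overlap, and its widths did not overlap either (2.03 ± 0.18 in rank, adjusted p = 1.07e-09; -0.71 ± 0.09 in width, limma). H2-Oa (34092379 to 34095234) was stronger at its promoter region (34092120 to 34093918), where ranks were 7886, 10427 and 13799 in resident and 3706, 5388 and 9471 in migratory libraries (-0.92 ± 0.13, adjusted p = 1.41e-06, limma). Its strongest region (34100991 to 34103954) was at 3340, 6708 and 7682 against 5672, 7028 and 8792, a difference of 0.24 ± 0.09 (adjusted p = 0.0284, limma) that was lost without the second Cre-negative or the third Cre-positive cDC2 library.

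A region below H2-Oa (34086848 to 34087388) was called in 6 of 6 migDC2 and 6 of 6 DN migDC libraries and in 0 of 4 migDC1 and 0 of 12 resident ones (adjusted p = 0.000637 for migratory against resident, exact). It was the only presence call among 10 tested regions of H2-O, where 25.0% of all regions were called more often and 15.1% less often. It missed the threshold with peaks of signal at least 400 (adjusted p = 0.0536, exact). H2-O is known from B cells as well as dendritic cells. Of 52 regions of B cell markers, 5 to 26 were called in resident and 9 to 43 in migratory libraries, most in DN migDC with 20 to 43. Of 85 regions of plasmacytoid dendritic cell markers 28 to 45 were called in resident and 42 to 77 in migratory libraries, with 0 over Ly6d in any library. The part of such cells in these results was not tested.

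Cd74 (chromosome 18, 60803849 to 60812652), the invariant chain, lay under one of the broadest accessible regions, 60802753 to 60840788, which also runs over Tcof1, a ribosome-biogenesis gene next to it. In resident libraries the strongest peak over it was 26468 bp wide at the lowest, 37828 bp in the median and 48172 bp at the highest. In migDC1 it was 5150, 6556, 6213 and 6205 bp, in migDC2 13611, 23116 and 32714 bp, and in DN migDC 16823, 28574 and 32757 bp. All 4 migDC1 libraries were below every other library, also by the widest peak over the gene (at most 10355 bp in migDC1), and some migDC2 and DN migDC libraries reached into the resident range.

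Peaks covered 92.9% to 100% of the Cd74 region in resident, 75.3% to 92.2% in migDC2, 76% to 91.9% in DN migDC and 32.4% to 54.4% in migDC1 libraries. Over all migratory libraries the peak was narrower by -1.20 ± 0.10 (SE, adjusted p = 7.92e-10, limma). The 4 plain-titled migratory libraries had widths of 30652, 32714, 30687 and 18212 bp, of which 1 lay below all resident libraries. The rank barely moved at the top of the lists: 1 to 3 in resident, 1 to 10 in migDC2, 1 to 4 in DN migDC, and 14, 22, 20 and 20 in migDC1. The log2 difference of 1.91 ± 0.37 (adjusted p = 1.04e-04, limma) lost its call with title style as a term (1.01, adjusted p = 0.142, limma).

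**Figure D4:**
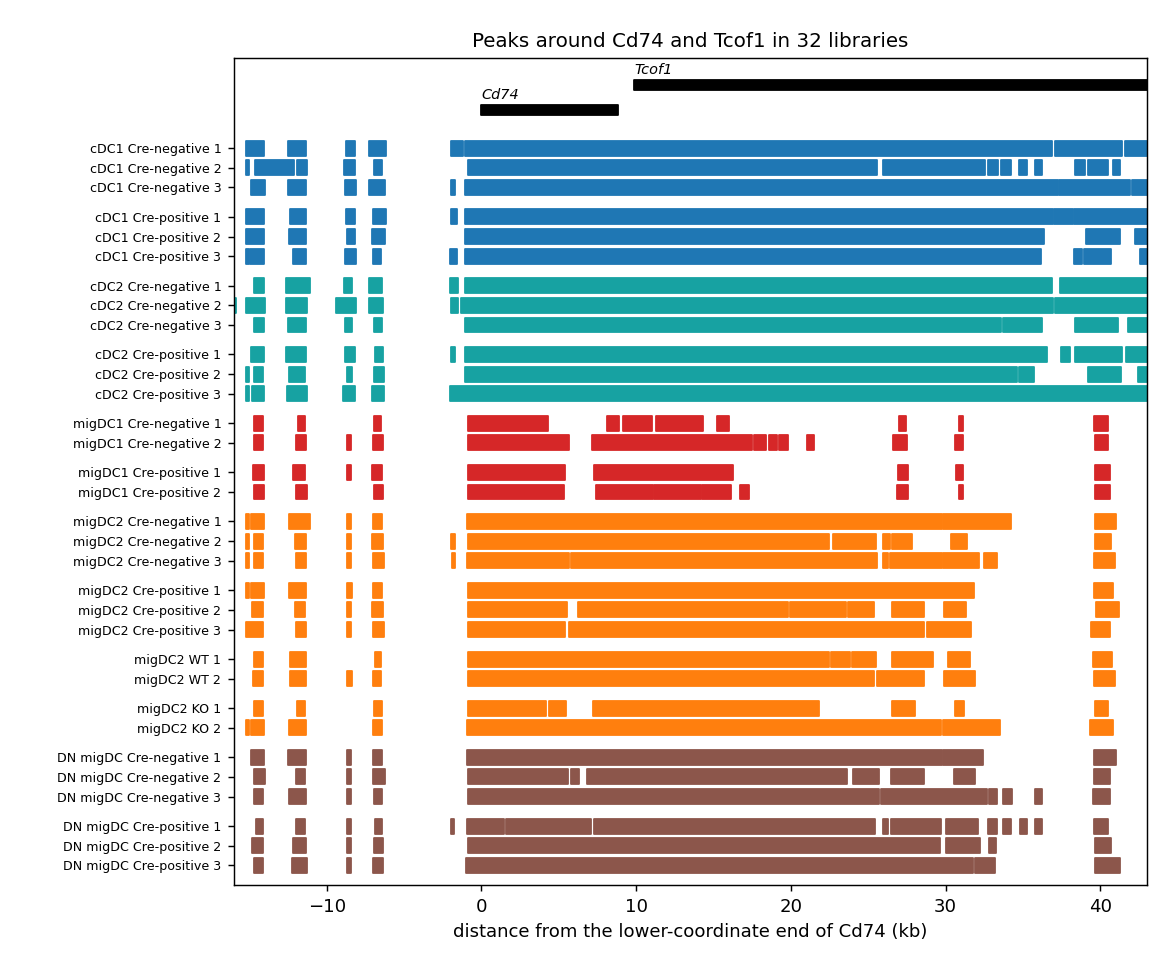
Peaks of each of the 32 libraries (rows, coloured by subset) around Cd74 and Tcof1, with distance in kb from the lower-coordinate end of Cd74; bars are the deposited peaks, drawn to scale, and black bars are the genes. The strongest peak over the region is 26468 to 48172 bp wide in the 12 resident rows, 13611 to 32757 bp in the migDC2 and DN migDC rows of the floxed cohort and 5150 to 6556 bp in the 4 migDC1 rows, where the widest peak over Cd74 reaches 10355 bp.

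Between the resident subsets, calls ran in both directions. For cDC2 against cDC1, 6 of 29 regions were weaker and 3 stronger, where 17.8% of all regions were weaker and 15.6% stronger. By share of list signal in place of rank the split was 3 weaker and 11 stronger, so no direction is given for the genes as a whole. The region beyond H2-Aa (34290573) was weaker in cDC2 by 2.66 ± 0.48 (adjusted p = 0.000153, limma), with ranks of 25 to 280 in cDC1 and 76 to 642 in cDC2. The region past H2-Eb1 (34311082) was stronger in cDC2 by -2.76 ± 0.65 (adjusted p = 0.0019, limma), with ranks of 38 to 1558 in cDC1 and 20 to 118 in cDC2.

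Other calls in cDC2 against cDC1 were weaker regions at H2-DMb1 (34152174, 1.34 ± 0.28, and 34154303, 1.68 ± 0.60), H2-Ab1 (34256393, 1.22 ± 0.34), H2-Eb1 (34300209, 0.38 ± 0.13) and upstream of Cd74 (60796572, 0.38 ± 0.06), and stronger ones at H2-Oa (34079462, -0.14 ± 0.05, and 34100991, -0.58 ± 0.14). Those at H2-DMb1 34154303 and H2-Eb1 34300209 were lost in 8 and 7 of 28 fits without 1 library. The second also turned to -0.094 by share of signal, and H2-Oa 34100991 to 0.015 by signal per base. In width 3 regions were wider and 1 narrower, against 5.72% and 6.65% of all regions. The region from H2-Ab1 to H2-Aa was wider in cDC2 by 1.02 ± 0.30 (adjusted p = 0.0246, limma), a call lost without the second Cre-negative cDC1 library, the third Cre-negative or the second Cre-positive cDC2 library. The others were H2-Oa (34092120, 0.66 ± 0.18), H2-DMb2 (34140238, 0.47 ± 0.15) and, narrower, H2-DMb1 (34154303, -1.71 ± 0.32). The call at H2-Oa was lost without the third Cre-positive cDC1 library, and that at H2-DMb2 in 16 of 28 fits.

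No region differed in presence between cDC2 and cDC1 among 16 tested, where 2.16% of all regions were called more often and 13.4% less often. At an unadjusted p under 0.05 by the exact test there were 3: at Ciita 10468310 and 10477549 and at H2-DMb2 34148434, each with a peak in 6 of 6 cDC1 and 1 of 6 cDC2 libraries (adjusted p = 0.064, exact). Without the second Cre-positive cDC1 library 5 regions passed, and without the second Cre-negative one 3.

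Among migratory cells, the largest differences between migDC2 and migDC1 over the 29 common regions were at Cd74, in rank and in width. Its region was wider in migDC2 by 1.65 ± 0.16 (adjusted p = 3.24e-06, limma) and stronger by -2.51 ± 0.63 (adjusted p = 0.00469, limma), though weaker by signal per base (1.17). Among lettered libraries alone the migDC2 widths of 23305, 19754, 13611 and 22926 bp all exceeded the migDC1 widths. Over the start of H2-Ab1 (34260435) the rank difference was close in size, -2.31 ± 0.88, but did not pass (adjusted p = 0.0534, limma). In all, 2 of 29 regions were weaker and 2 stronger, against 17.3% and 10.6% of all regions, and 2 were wider and 1 narrower, against 3.18% and 1.71%. The further calls in rank were H2-DMa (34135154, -0.60 ± 0.18), H2-Ob (34234677, 0.24 ± 0.08) and H2-Eb1 (34300209, 0.59 ± 0.14), and in width H2-Oa (34079462, 0.58 ± 0.11) and Ciita (10495701, -0.37 ± 0.10). By signal per base H2-DMa turned to 3.84 and H2-Ob to -0.34. Of 28 fits without 1 library, the calls at H2-DMa, H2-Ob and Ciita were lost in 2, 3 and 7; those that lost H2-DMa left out the second Cre-negative or first Cre-positive migDC1 library. Among lettered libraries alone, H2-Ob in rank and H2-Oa and Ciita in width no longer passed (adjusted p = 0.06, 0.108 and 0.153, limma), which left Cd74 as the only call in width.

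By presence, 0 of 14 member regions and 0 of all 20987 regions tested differed between migDC2 and migDC1 after adjustment (0%), with 7 and 6400 at an unadjusted p under 0.05 by the exact test; 6 against 4 libraries with genotype as strata cannot go below p = 0.01 (exact). Regions of H2-Oa (34086848, 34096544), H2-DMa (34134418) and H2-Ob (34251624) were called in 6 of 6 migDC2 and 0 of 4 migDC1 libraries. Regions of H2-Ob (34235768) and H2-Aa (34289185) were called in 0 of 6 and 4 of 4. Each had an adjusted p of 0.0594 (exact).

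DN migDC and migDC2 differed at 1 of 29 regions, at H2-Oa (34079462, stronger by -0.15 ± 0.05, adjusted p = 0.0369, limma), where 9.60% of all regions differed in either direction; 9 of 28 fits that left out 1 library lost it, as did lettered libraries alone (adjusted p = 0.125, limma). In width 0 of 29 passed (0.290% of all), with 2 at an unadjusted p under 0.05 by limma. By presence 0 of 15 passed and 0 of all 22285 (0%), with 1 member region, at Ciita, and 1377 of all regions at an unadjusted p under 0.05 by the exact test. The broad H2-Ab1 to H2-Aa region, with median ranks of 1456 and 9322, had a difference of -1.88 ± 0.69 that did not pass (adjusted p = 0.0853, limma).

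**Figure D5:**
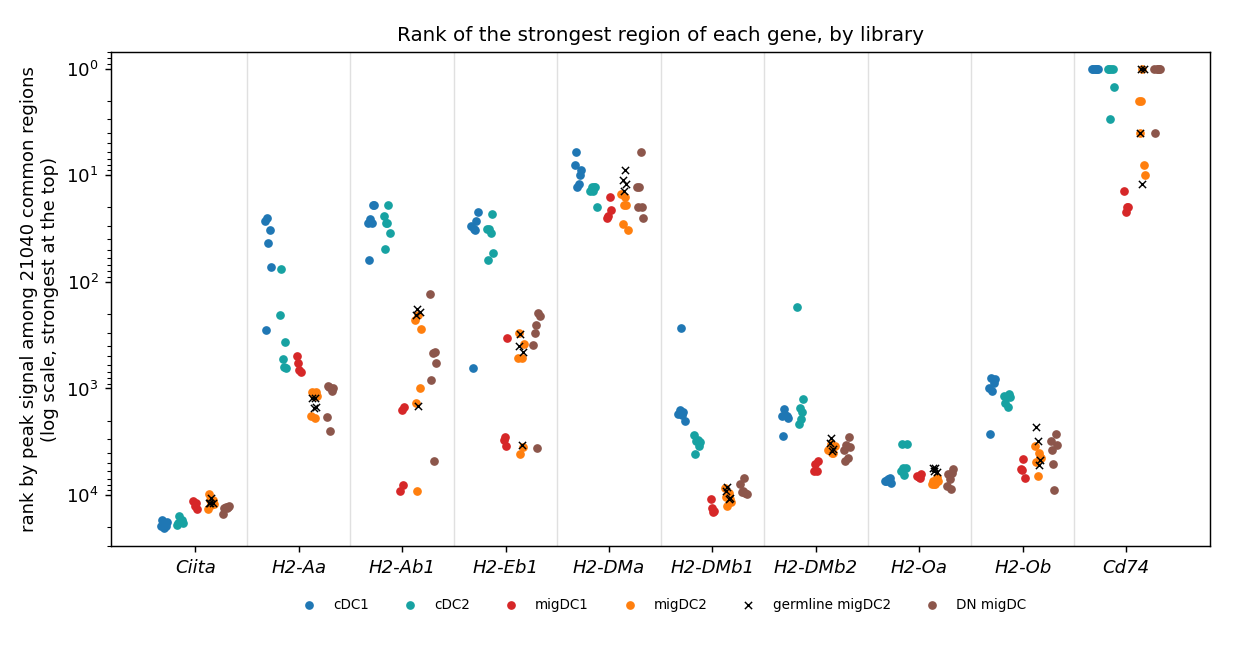
Rank by peak signal among the 21040 common regions (log axis, strongest at the top) of the strongest region of each of the 10 genes, 1 point per library, coloured by subset; crosses are the 4 germline libraries. In the floxed cohort resident points stand above migratory ones for H2-Ab1, H2-DMb1, H2-DMb2 and H2-Ob without overlap. They stand below them for Ciita (whose region was the strongest in migratory, not in resident, libraries), and migDC1 stands apart for Cd74 at ranks 14 to 22. The share of all 21040 regions without such overlap is not given.

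Whether the change from resident to migratory cells differed between the lineages was tested as migDC1 minus cDC1 against migDC2 minus cDC2, a contrast added after the data had been seen. In rank 3 of 29 regions changed more towards weaker in the cDC1 lineage and 1 more towards stronger, against 8.64% and 11.5% of all regions. In width 2 of 29 narrowed more in that lineage and 0 widened more, against 1.66% and 1.45%. The region over Cd74 led in both (2.87 ± 0.84 in rank, adjusted p = 0.0187; -1.59 ± 0.22 in width, adjusted p = 0.000114, limma), but the rank difference turned to -1.42 by signal per base. H2-DMb1 at its promoter followed in rank with 1.65 ± 0.42 (adjusted p = 0.00793, limma).

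No class II region differed between Cre-positive and Cre-negative libraries. Over the 5 subsets together, 0 of 29 passed in rank (0.0665% of all regions did), 0 of 29 in width (0.0143%) and 0 of 34 in presence (0% of 61445). At an unadjusted p under 0.05 there were 1 in rank and 0 in width by limma, and 0 in presence by the exact test, against 1034, 972 and 170 among all regions. The differences in rank ran from -0.50 at the H2-Eb1 promoter region to 0.62 past H2-Eb1, with standard errors of up to 0.58. Over Cd74 the difference was -0.01 ± 0.37 in rank and 0.01 ± 0.10 in width. Member regions took a median of 0.280% of list signal in the 14 Cre-negative and 0.294% in the 14 Cre-positive libraries, with ranges that overlapped widely. Within 1 subset, 3 against 3 libraries cannot go below p = 0.1 (exact).

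The germline migDC2 libraries were described without a test. Member regions held 0.321% and 0.327% of list signal in WT and 0.262% and 0.321% in IFNgr1-/- libraries, all but 1 of these above the range of floxed migDC2 (0.229% to 0.265%), in lists that were also shorter. The strongest Cd74 peak was 23361 and 26270 bp wide in WT and 14607 and 30626 bp in IFNgr1-/-, and the H2-Ab1 to H2-Aa region had ranks of 7369 and 9328 in WT and 16168 and 5491 in IFNgr1-/-. At both of these regions the IFNgr1-/- pair lay on either side of the WT pair.

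The other genes of the pathway were called at shares near those of all regions. Of 13 partners (the promoter factors Rfx5, Rfxank, Rfxap, Creb1, Nfya, Nfyb and Nfyc, the genes H2-Ea and H2-Eb2, the ubiquitin ligase Marchf1, and the processing enzymes Ctss, Lgmn and Ifi30), 28 common regions held 11 weaker and 10 stronger in migratory libraries, with a median of 0.07, and 5 narrower and 5 wider, where 38.7% of all regions were weaker, 29.9% stronger, 17.3% narrower and 20.9% wider. By presence 9 of 44 were called more often and 9 less often, against 25.0% and 15.1% of all regions. A region of Lgmn, an endosomal protease, was stronger by -2.01 ± 0.10 (adjusted p = 8.2e-14, limma), one of Rfx5 by -0.94 ± 0.14, and one of Marchf1, which marks class II molecules for removal, by -0.62. Other regions of Lgmn and Marchf1 ran in both directions. One of Lgmn was weaker by 0.35 ± 0.05, and one was called in 11 resident and 3 migratory libraries (adjusted p = 0.00206, exact). One of Marchf1 was called in 11 and 4 (adjusted p = 0.004, exact), and another in 0 and 6 (adjusted p = 0.0438, exact). A region near Nfya had a peak in all 16 migratory and 0 resident libraries. Next to H2-Eb1, a region of H2-Ea (1.55), one of H2-Eb2 (1.35) and one over both (1.23) were weaker. A further region of H2-Eb2 was stronger (-0.60), and another was called in 16 migratory and 6 resident libraries (adjusted p = 0.0103, exact). Other presence calls there ran the other way. At H2-Eb2, 34329687 was called in 12 resident and 3 migratory libraries, and 34338692 in 7 and 0 (adjusted p = 0.000194 and 0.004, exact). At H2-Ea, 34342834 was called in 12 and 8, and 34344758 in 7 and 0 (adjusted p = 0.0247 and 0.004, exact).

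Over the 28 floxed libraries, log2 ranks of the strongest regions of H2-Ab1, H2-Eb1 and H2-Ob moved together. Pearson r was 0.91 for H2-Ab1 with H2-Eb1, 0.92 for H2-Ab1 with H2-Ob and 0.90 for H2-Eb1 with H2-Ob, the highest of all pairs. The class II genes did not all move as one. Ciita ran against every other gene, with r from -0.31 with H2-Oa to -0.89 with H2-Ob. H2-Oa reached at most 0.36 with any gene (H2-Eb1), and Cd74 with H2-Aa had 0.30. Among 12376 genes, those whose strongest common region was most like the mean of the class II genes were Gm17266 (r = 0.949), Tmed10 (0.947), Dlx2 (0.946), Sft2d1 (0.943) and Fam117a (0.943). These correlations describe points that share subset and library, and carry no test.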

How the data were processed

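Omni-ATAC-seq peak lists of 32 libraries, 1 list each, were used; groups came from the sample labels. Per the submitters' processing notes the tools were Bowtie2, deepTools and Genrich and the build mm10 (versions, settings, any transposase shift: not given in the sources used here). For each peak the authors deposited a signal, at least 200 in each list, and a −log10 p-value at the summit. The signal was used to rank peaks, and the −log10 value only to order peaks of equal signal. Lists hold no read counts, so depth is unknown and no counting error can be given. Wider peaks have higher signal.

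Peaks of the 32 lists were merged into regions wherever 3 or more lists covered 100 bp or more (90465, median width 569 bp). A list counted as having a region if the overlap with one of its peaks reached 50% of either. Genes came from a RefSeq table of GRCm38.p6, without strand; a region overlapping several gene bodies counted for each, and an intergenic one went to the nearest gene end within 50000 bp.

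Presence was tested two-sided with an exact conditional test, stratified by genotype (or by subset for genotype), in regions with at least 3 calls and 3 missing calls. Log2 rank by signal among the 21040 regions called in all libraries, and log2 width centred by library, were fitted with limma 3.58.1 (R 4.3.3) as means of 12 groups. Benjamini-Hochberg adjustment ran over every region tested, with a threshold of 0.05. Other steps used Python 3.11.15, numpy 2.4.6 and pandas 2.3.3; the tests were tried on simulated data. Alternatives were equal list length, other overlap, consensus and signal minimums, gene bodies only, percentile rank, share of list signal, a floxed-only region set, title style and each library left out. Signal per base, the title term for width, all contrasts in width other than migratory against resident and Cre, the lineage contrast, and fits on the lettered titles with and without their number as a block were added after seeing the data.

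The genes, lists and tests were chosen with earlier results of these data known. The text names the 10 genes, the strongest region of each, regions that passed a test, and 13 partner genes; other regions, such as those just missing a threshold, were named after their values were seen. Marker lists of cDC1, cDC2, migratory dendritic, Langerhans, B, plasmacytoid dendritic, monocyte and T cells were counted; regions called ran from 26 to 45 (resident) and 20 to 46 (migratory) of 65 for cDC2, 6 to 11 and 10 to 16 of 18 for Langerhans, 18 to 28 and 17 to 33 of 43 for monocyte, and 5 to 19 and 15 to 25 of 30 for T cell markers. Neighbouring member regions were covered by 1 peak in at most 2 libraries for each of 12 pairs, so such regions share values there.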

Additional observations from a re-analysis of the deposited data

Results flagged for a closer look

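The change from resident to migratory cells differed between the cDC1 lineage (migDC1 minus cDC1) and the cDC2 lineage (migDC2 minus cDC2) at 5 class II regions, by a limma test of the difference itself with Benjamini-Hochberg adjustment over all regions. Over Cd74 (chromosome 18, 60802753) the rank difference was larger towards weaker in the cDC1 lineage by 2.87 ± 0.84 (adjusted p = 0.0187) and the width difference was larger towards narrower by -1.59 ± 0.22 on the log2 scale (adjusted p = 0.000114). The rank call there missed the threshold on a percentile scale (adjusted p = 0.969) and by share of list signal (adjusted p = 0.0509), and reversed by signal per base; the width call held in each alternative run. At H2-DMb1 the promoter region (34152174) differed by 1.65 ± 0.42 in rank (adjusted p = 0.00793), and the next region (34154303) by -1.87 ± 0.48 in width (adjusted p = 0.0291), a call lost in 7 of 28 fits without 1 library. At H2-Oa (34100991) the difference in rank was -0.75 ± 0.21 (adjusted p = 0.015). At H2-DMa (34135154) it was 0.72 ± 0.24 (adjusted p = 0.0348), lost in 10 of 28 such fits. The rank differences at H2-Oa and H2-DMa also reversed by signal per base. All migDC1 libraries have lettered and all resident ones plain titles, so title style and this change cannot be told apart for the cDC1 lineage. The comparison of 1 library with the others of its group needs at least 4 libraries, and with 2 or 3 in each group it was not made.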

How the results depend on the processing

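The lettered titles of migDC1, migDC2 and DN migDC share the numbers 1 to 4, so a fit on these 12 libraries with the number as a replicate block was added after seeing the data; plain titles share none. Deviations from the group mean of same-numbered libraries correlated with r of -0.049 to 0.32 in rank and -0.0049 to 0.19 in width. These were over 0.1 in 2 and 1 of 6 pairs, and highest between migDC2 and DN migDC of numbers 1 and 3. The labels name no shared animal, and these values cannot tell whether same-numbered samples share one. With the block, migDC2 against migDC1 gave 5 in rank and 1 in width and DN migDC against migDC2 gave 2 and 0; the same libraries without it gave the same 4 counts. By presence the paired test cannot go below p = 0.125 (exact) and was not run. Counts of member regions past the threshold that moved were as follows, main count first. For presence, migratory against resident (9) gave 18 with equal list length, 16 with a consensus of at least 6 libraries and 3 over gene bodies only; cDC2 against cDC1 (0) gave 2, 1 and, with signal of at least 400, 1; migDC2 against migDC1 (0) gave 3 with equal list length. For rank, migratory against resident (26) gave 17 over gene bodies only; cDC2 against cDC1 (9) gave 14 by share of signal, 3 per base and 3 over gene bodies; migDC2 against migDC1 (4) gave 9 on a percentile scale, 7 by share, 1 per base and 2 over gene bodies; DN migDC against migDC2 (1) gave 3 on a percentile scale, 2 by share, 0 in the floxed-only set, 2 with the title term and 0 over gene bodies; the lineage contrast (4) gave 2 per base. For width, cDC2 against cDC1 (4) gave 1 without centring and the lineage contrast (2) gave 1 with the title term. Fewer regions enter over gene bodies; otherwise the cause was not tested.

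Directions that reversed per base were, for migratory against resident, Ciita 10500383 (-0.062), H2-DMb1 34154303 (-0.046), H2-Ob 34234677 (-0.08) and 34249215 (-0.19), H2-Ab1 34256393 (-0.50), H2-Aa 34290573 (-2.37) and Cd74 60791209 (-0.15); for cDC2 against cDC1, H2-Oa 34100991 (0.015); for migDC2 against migDC1, H2-DMa 34135154 (3.84), H2-Ob 34234677 (-0.34) and Cd74 60802753 (1.17); for the lineage contrast, H2-Oa 34100991 (0.067), H2-DMa 34135154 (-4.37) and Cd74 60802753 (-1.42). By share, H2-Eb1 34300209 reversed for cDC2 against cDC1 (-0.094), and with the title term H2-DMa 34112089 reversed in width (0.023).

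Leaving out 1 library at a time gave 9 to 11 in presence, 23 to 26 in rank and 19 to 21 in width for migratory against resident. For cDC2 against cDC1 it gave 0 to 5, 7 to 12 and 2 to 5. Presence counts there were 3 and 5 without the second Cre-negative or Cre-positive cDC1 library and 1 and 2 without the first or second Cre-negative cDC2 library; width gave 2 without the third Cre-positive cDC1 library. For migDC2 against migDC1 it gave 2 to 6 in rank (2 without the first Cre-positive migDC1 library) and 2 to 4 in width; for DN migDC against migDC2 0 to 3 in rank, 10 libraries moving the count; for the lineage contrast 3 to 6 in rank and 1 to 3 in width (1 without the first Cre-positive cDC1, either Cre-negative migDC1 or the first Cre-positive migDC2 library). All other ranges were 0. Single regions called for migratory against resident kept their call in 128 of 147 rank, 32 of 40 width and 37 of 44 presence alternatives. Comparisons of migratory subsets within lettered titles alone were not run by presence, since 4 against 4 libraries cannot pass (smallest p 0.0556, exact).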
